A study of Drosophila melanogaster with 11 samples.

Results

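The rhodopsin genes of Drosophila melanogaster were followed in the heads of male flies held at different temperatures. The 7 genes were ninaE, Rh2, Rh3, Rh4, Rh5, Rh6 and Rh7, chosen by name, and all 7 were found among the 13804 linear (not circular) genes of the expression table. Total RNA was sequenced from 11 libraries of wild-type CantonS males carrying no transgene, each from pooled flies, that had been reared at 25 °C with 12 h of light and 12 h of dark. The 3 pre-treatment libraries were taken just before the exposure, after mating, separation under CO2 and a day of recovery, and the other libraries were taken after 10 days at 18 °C (n = 3), 25 °C (n = 2) or 29 °C (n = 3). The pre-treatment flies were therefore 10 days younger than all the exposed flies, so that age and exposure cannot be told apart in a comparison with them. The sample labels name the head as the tissue, but the study's design text names brains once.

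A rhodopsin is the light receptor of a photoreceptor cell: a seven-helix protein bound to a vitamin A chromophore, packed into the microvilli of the rhabdomere, that switches on the phospholipase C cascade when it absorbs light. As a rule each photoreceptor type makes a single rhodopsin. In each unit of the compound eye the outer photoreceptors R1 to R6 make Rh1, the product of ninaE, and serve motion and dim-light vision. The inner photoreceptors R7 and R8 serve color vision and come in matched pairs, Rh3 with Rh5 in pale units and Rh4 with Rh6 in yellow units. Rh3 is also made in the dorsal rim, and together with Rh4 in some dorsal yellow R7 cells. Rh2 is the rhodopsin of the ocelli, the simple eyes on top of the head, and Rh7 has been described in clock neurons of the brain.

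Values are normalized reads, the reads of a gene in a library divided by that library's size factor. Depth ran from 32064412 to 123404737 reads per library, and 3 reads, taken as the detection floor, were worth 1.42 to 5.98 normalized reads, which lies far below all 7 rhodopsins. All 5 photoreceptor markers fixed for this tissue (chp, eys, prom, ninaC and Arr2) were abundant. Markers of neurons, glia, fat body and muscle were found as well, with Fbp1 (fat body) and TpnC4 (muscle) near the floor in some groups, so that the RNA was not that of an isolated eye. In bulk RNA, fewer cells of a type and less RNA per cell cannot be told apart.

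The genes lie on 3 chromosome arms (dm6, Ensembl gene models). ninaE (FBgn0002940) spans 3R:19886255-19888206 on the minus strand in 5 exons. Rh2 (FBgn0003248, 3R:18899423-18901019, plus strand), Rh6 (FBgn0019940, 3R:15483158-15484699, plus strand) and the single-exon Rh3 (FBgn0003249, 3R:20081060-20082450, minus strand) are on the same arm. Rh5 (FBgn0014019) is at 2L:12008153-12009832 on the plus strand. Rh4 (FBgn0003250, 3L:16852527-16862517) and Rh7 (FBgn0036260, 3L:12164205-12175482) are minus-strand genes with long introns, since spans of 9991 and 11278 nt hold 1349 and 4014 nt of exon. The Rh4 span also holds sina, sinah and CG13029 on the opposite strand, none of which shares a base with an Rh4 exon. No other annotated gene overlaps the remaining 6 rhodopsins.

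Levels of different genes were set side by side per kb of exon, because the exons differ in length. ninaE was far above all the others, at a mean of 713260 normalized reads per kb over the 4 groups, 22.8 times Rh3. It was the linear gene with most reads in all 11 libraries and took 1.42 to 2.59% of the linear reads. Rh3 followed with 31350 normalized reads per kb and Rh4 with 24234. Rh3 was above Rh4 in 10 of 11 libraries, all but 29 °C replicate 1. The R8 rhodopsins were lower, Rh6 at 16194 and Rh5 at 10551 normalized reads per kb, and the ocellar Rh2 was at 10123. Rh4 was above Rh6 in 10 of 11 libraries and Rh5 above Rh2 in only 8 of 11, by 1.04-fold on average, so that Rh5 and Rh2 were not separated beyond the spread between libraries. Rh7 came last with 548 normalized reads per kb, 18.5-fold below Rh2, and was below it in all 11 libraries. The ranks were the same per kb of coding sequence, but on that scale Rh7 was 7.97-fold below Rh2, because much of the Rh7 exon is not coding.

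**Figure D1:**
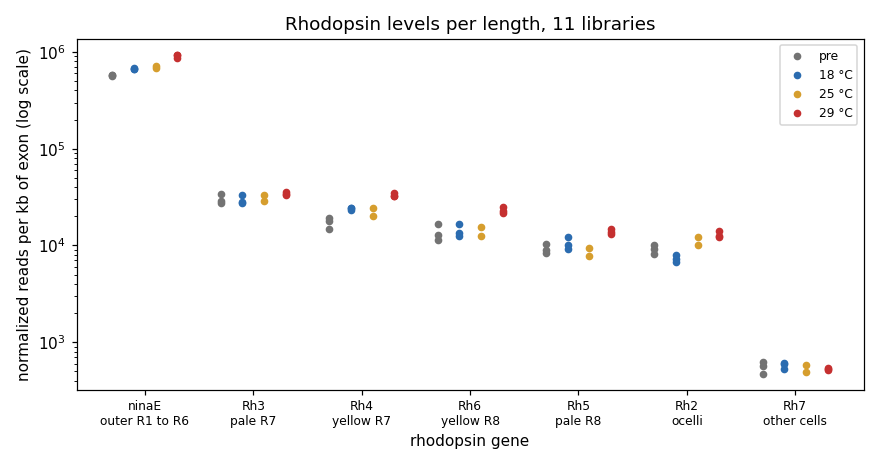
Normalized reads per kb of exon (log axis) for the 7 rhodopsins, from the highest mean to the lowest, with a point per library colored by group (pre-treatment, 18, 25 and 29 °C). ninaE stands 22.8-fold above Rh3 on average, Rh3 to Rh2 lie close together, and Rh7 is lowest in all 11 libraries.

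The abundance of ninaE, the rhodopsin of the outer photoreceptors, was 906796, 903277 and 906835 normalized reads before the exposure, 1073415, 1050700 and 1067797 after 18 °C, 1092603 and 1147596 after 25 °C, and 1472317, 1483758 and 1366695 after 29 °C. The groups did not overlap and were ordered by temperature above the pre-treatment flies. ninaE was 1.59-fold higher after 29 °C than before the exposure (log2 fold change 0.67 ± 0.094 SE, limma, Benjamini-Hochberg adjusted p = 0.000766). Between 29 °C and 18 °C it differed by 1.35-fold (0.44 ± 0.094, limma adjusted p = 0.00935), which passed the p threshold but not the required log2 fold change of 0.5, so it was not called. The differences of 18 °C (0.23, limma adjusted p = 0.124) and 25 °C (0.31, limma adjusted p = 0.111) from the pre-treatment flies did not pass, nor did that of 29 °C from 25 °C (0.36, limma adjusted p = 0.191).

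The ocellar rhodopsin Rh2 had 12608, 11224 and 13635 normalized reads in pre-treatment flies, 9922, 9294 and 10831 after 18 °C, 13637 and 16569 after 25 °C, and 16917, 19213 and 16860 after 29 °C. The 18 °C libraries were the lowest of all and the 29 °C libraries the highest. Rh2 rose 1.76-fold in 29 °C flies against 18 °C flies (log2 fold change 0.82 ± 0.10 SE, limma adjusted p = 0.000478). It rose 1.41-fold in 29 °C flies against pre-treatment flies, which is close to the fold limit (0.50 ± 0.10, limma adjusted p = 0.00659). That call was lost without pre-treatment replicate 2 (0.43) or without 29 °C replicate 2 (0.44). In 18 °C flies Rh2 was lower than in 25 °C flies (-0.59 ± 0.12, limma adjusted p = 0.0180), a call that was lost without 18 °C replicate 1, 18 °C replicate 2 or 25 °C replicate 2, where the adjusted p was 0.0705, 0.0629 and 0.111. The difference of 18 °C from pre-treatment flies did not pass (-0.32, limma adjusted p = 0.0632).

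**Figure D2:**
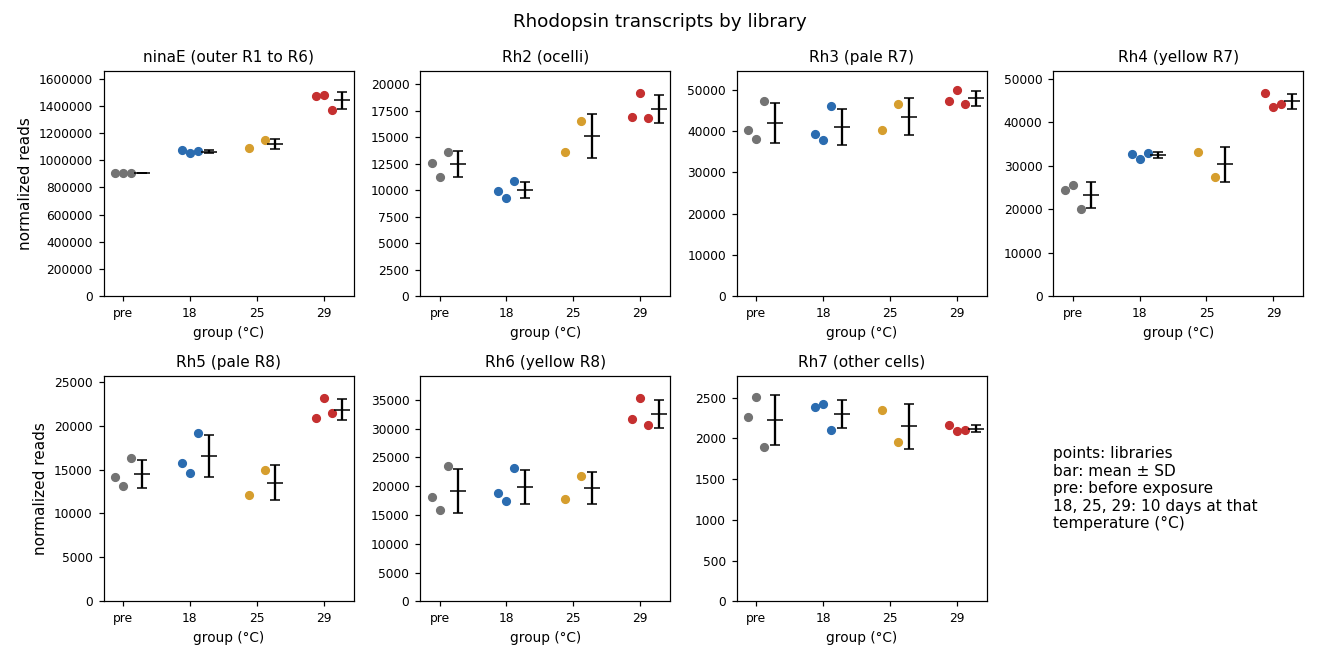
Normalized reads of each rhodopsin by library (points) with the group mean ± SD (bars), in pre-treatment flies and after 10 days at 18, 25 and 29 °C, with all axes starting at 0. The 29 °C libraries lie above the 18 °C libraries for 6 genes, and the groups of Rh7 overlap.

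Of the R7 rhodopsins, Rh4 was called in 1 comparison and Rh3 in none. The pale Rh3 had 40301, 38065 and 47394 normalized reads before the exposure, 39202, 37909 and 46066 after 18 °C, 40304 and 46691 after 25 °C, and 47270, 49930 and 46667 after 29 °C. Its pre-treatment, 18 °C and 25 °C libraries overlapped, and the 29 °C libraries were above those of 18 °C but not clear of the pre-treatment range. No comparison of Rh3 passed. Between 29 °C and 18 °C its log2 fold change was 0.23 with a 95% interval of -0.004 to 0.46 (limma adjusted p = 0.171).

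The yellow Rh4 had 24374, 25643 and 19987 normalized reads before the exposure, 32629, 31594 and 32922 after 18 °C, 33177 and 27477 after 25 °C, and 46615, 43388 and 44174 after 29 °C. All 8 exposed libraries were above all 3 pre-treatment libraries, those of 18 °C and 25 °C overlapped, and those of 29 °C stood above the rest. Rh4 showed the largest difference among the rhodopsins, 1.92-fold higher after 29 °C than before the exposure (log2 fold change 0.95 ± 0.10 SE, limma adjusted p = 0.000153). It passed the p threshold but not the fold limit in 29 °C flies against 18 °C flies (0.47 ± 0.10, limma adjusted p = 0.00969) and in 18 °C flies against pre-treatment flies (0.48 ± 0.10, limma adjusted p = 0.0103). The second of these was called without pre-treatment replicate 1 (0.52) or without pre-treatment replicate 2 (0.55). In 25 °C flies against pre-treatment flies the value was 0.38 (limma adjusted p = 0.0693), and without 25 °C replicate 2 it was called (0.52, limma adjusted p = 0.0460).

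The R8 rhodopsins Rh5 and Rh6 shared a pattern in which 29 °C stood apart from the other groups. Rh5, of the pale units, had 14110, 13130 and 16259 normalized reads before the exposure, 15794, 14573 and 19181 after 18 °C, 12099 and 14918 after 25 °C, and 20827, 23154 and 21477 after 29 °C. The 29 °C libraries were above all others, which overlapped. Rh5 rose 1.50-fold in 29 °C flies against pre-treatment flies (log2 fold change 0.59 ± 0.12 SE, limma adjusted p = 0.00649). Against 25 °C flies it rose 1.62-fold, at the edge of the threshold (0.70 ± 0.14, limma adjusted p = 0.0493), and that call was held in only 3 of the 11 fits that left out a library. Against 18 °C flies it passed the p threshold but not the fold limit (0.41 ± 0.12, limma adjusted p = 0.0410), and without 18 °C replicate 3 it was called (0.52).

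Rh6, of the yellow units and the eyelet, had 18134, 15922 and 23431 normalized reads before the exposure, 18778, 17472 and 23170 after 18 °C, 17710 and 21694 after 25 °C, and 31606, 35218 and 30579 after 29 °C. Here too the 29 °C libraries were above all the others, and the other 3 groups covered nearly the same range. Rh6 rose 1.64-fold in 29 °C flies against 18 °C flies (log2 fold change 0.72 ± 0.15 SE, limma adjusted p = 0.00844). It rose 1.69-fold against pre-treatment flies (0.78 ± 0.15, limma adjusted p = 0.00506). Against 25 °C flies the estimate was of the same size, 0.73 ± 0.17, but did not pass (limma adjusted p = 0.103), and without pre-treatment replicate 3 it was called (limma adjusted p = 0.0406).

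Rh7 had 2261, 2506 and 1899 normalized reads before the exposure, 2384, 2418 and 2104 after 18 °C, 2343 and 1956 after 25 °C, and 2166, 2087 and 2105 after 29 °C. All pairs of groups overlapped. The log2 fold change between 29 °C and 18 °C was -0.12 with a 95% interval of -0.36 to 0.13 (limma adjusted p = 0.540), so that a rise of the size seen for Rh2 or Rh6 lay outside the interval, and no other comparison of Rh7 passed.

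Read by comparison, 2 of 7 rhodopsins were called higher in 29 °C flies than in 18 °C flies (Rh2 and Rh6) and none lower, where 5.36% of the 12676 genes tested were called higher and 5.29% lower. A further 3 (ninaE, Rh4 and Rh5) passed the adjusted p threshold alone. The share of all genes that passed it was not counted, and 30.5% of all genes passed an unadjusted p of 0.05 in limma. The 29 °C and 18 °C libraries did not overlap for 6 of 7 rhodopsins, all higher at 29 °C, against 21.1% of all genes tested. Between 29 °C and pre-treatment flies, 5 of 7 were called higher (ninaE, Rh2, Rh4, Rh5 and Rh6), and none lower, with 5.92% of all genes called higher and 6.89% lower, and the same 5 did not overlap, against 19.3% of all genes. The median log2 fold change of the 7 genes was 0.44 in 29 °C against 18 °C flies and 0.59 in 29 °C against pre-treatment flies, beside medians of all genes tested within 0.01 of 0.

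Few rhodopsins were called in the other comparisons. After 25 °C none of 7 was called against pre-treatment flies by limma, edgeR or DESeq2, where limma called 2.77% of all genes higher and 2.66% lower, edgeR 2.89% and 2.35%, and DESeq2 3.61% and 3.38%. By limma 3 (ninaE, Rh2 and Rh4) passed an unadjusted p of 0.05, as 22% of all genes did, and the same 3 lay above the pre-treatment range, as 14.3% of all genes did. After 18 °C none was called against pre-treatment flies by any of the 3 tools, where limma called 4.69% of all genes higher and 4.44% lower, edgeR 4.83% and 4.16%, and DESeq2 5.55% and 5.49%. By limma ninaE, Rh2 and Rh4 passed unadjusted, with 30.8% of all genes. ninaE and Rh4 lay above the pre-treatment range after 18 °C (14.9% of all genes did) and Rh2 below it (16.7% of all genes). Between 29 °C and 25 °C flies, limma called Rh5 alone, with 0.245% of all genes called higher and 0.394% lower, while 5 of 7 (all but Rh3 and Rh7) did not overlap, against 13.3% of all genes. On the reads behind the normalized values, edgeR called Rh4 instead (0.56, edgeR adjusted p = 0.0488) with 0.276% of all genes called higher, and DESeq2 called Rh4, Rh5 and Rh6 with 0.828%. In 18 °C against 25 °C flies Rh2 was called lower, where 1.68% of all genes were and 1.55% were called higher, and ninaE and Rh2 lay below the 25 °C range, as 15.8% of all genes did. The comparisons that involve the same libraries are not independent of each other.

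**Figure D3:**
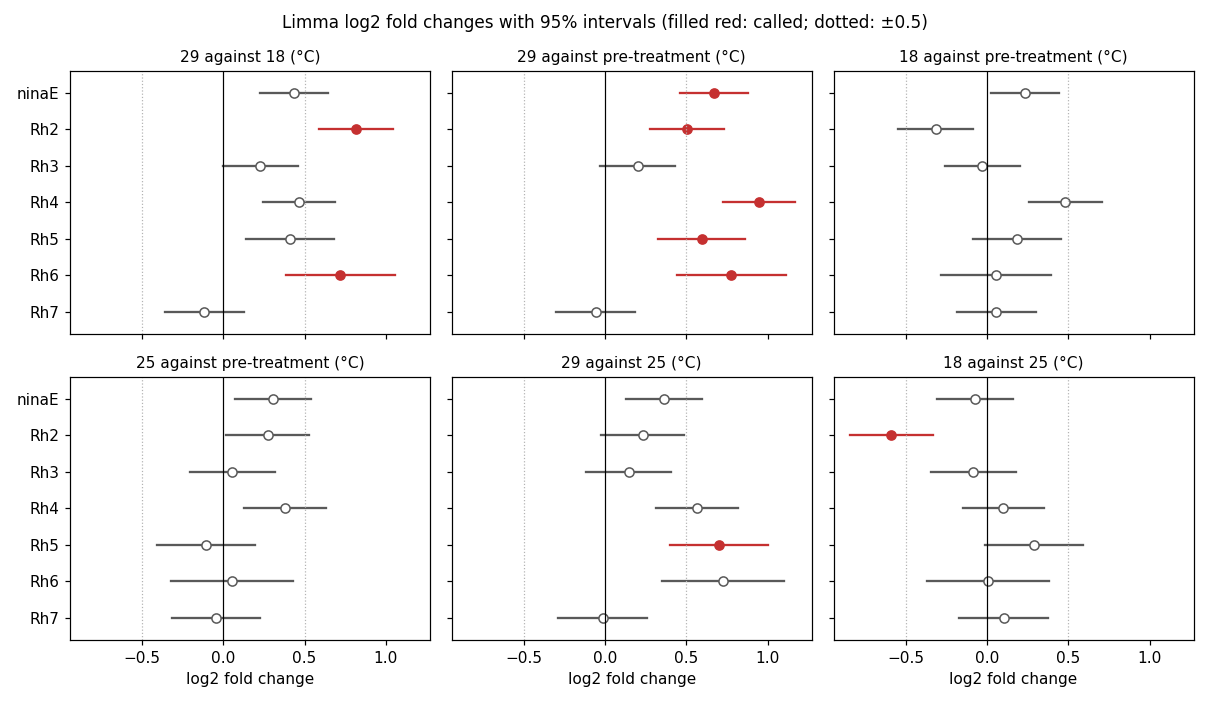
Limma log2 fold changes of the 7 rhodopsins with 95% intervals in the 6 comparisons, each named as the first group against the second, with filled red points for called genes and dotted lines at the fold limit of 0.5. The called genes are Rh2 and Rh6 in 29 against 18 °C, ninaE, Rh2, Rh4, Rh5 and Rh6 in 29 °C against pre-treatment, Rh5 in 29 against 25 °C and Rh2 (lower) in 18 against 25 °C.

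When the 4 groups were tested together, 5 of 7 rhodopsins differed among them, where 24.3% of all genes did. The adjusted p of the limma F test was 0.000645 for Rh4, 0.00139 for Rh2, 0.00309 for ninaE, 0.00948 for Rh6 and 0.00963 for Rh5. It was 0.334 for Rh3 and 0.807 for Rh7. Without 29 °C replicate 2 the F test of Rh6 did not pass (adjusted p = 0.0536), and with depth as a term that of Rh3 did (adjusted p = 0.0232).

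Ratios between rhodopsins of one library do not depend on how libraries are scaled, so they show which members moved apart. A total of 6 ratios were compared over the 4 groups by an exact permutation test over 92400 assignments of the libraries, two-sided by construction, with Benjamini-Hochberg adjustment over the 6. The ratio of Rh3 to Rh5, the R7 and R8 rhodopsins of pale units, separated all 4 groups. In bulk RNA it also holds the Rh3 made outside the pale units. It was 2.86, 2.90 and 2.91 in pre-treatment flies, 2.48, 2.60 and 2.40 after 18 °C, 3.33 and 3.13 after 25 °C, and 2.27, 2.16 and 2.17 after 29 °C. No groups overlapped, and the ratio was highest after 25 °C and lowest after 29 °C (exact permutation p = 6.49e-05, adjusted p = 0.00039). The yellow counterpart, Rh4 to Rh6, averaged 1.27 ± 0.38, 1.66 ± 0.21, 1.57 ± 0.43 and 1.38 ± 0.13 in the same order (SD), with overlapping groups (exact permutation p = 0.460, adjusted p = 0.460).

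The ratio of the R8 rhodopsins, pale Rh5 to yellow Rh6, was 0.778, 0.825 and 0.694 before the exposure. It was 0.841, 0.834 and 0.828 after 18 °C, 0.683 and 0.688 after 25 °C, and 0.659, 0.657 and 0.702 after 29 °C. The 18 °C libraries were above all others, and those of 25 °C lay within the range of 29 °C (exact permutation p = 0.00935, adjusted p = 0.0187). Leaving out any 1 of the 18 °C libraries moved the adjusted p to between 0.0527 and 0.0594. The ratio of the R7 rhodopsins, pale Rh3 to yellow Rh4, was 1.65, 1.48 and 2.37 before the exposure. It was 1.20, 1.20 and 1.40 after 18 °C, 1.21 and 1.70 after 25 °C, and 1.01, 1.15 and 1.06 after 29 °C. All 3 libraries of 29 °C were below the other 8, but the spread among pre-treatment flies was wide and the adjusted p did not pass (exact permutation p = 0.0380, adjusted p = 0.0570). It passed without pre-treatment replicate 2 (0.0448) or without 25 °C replicate 1 (0.0364).

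The ratio of the summed inner rhodopsins (Rh3 to Rh6) to the outer ninaE averaged 0.109 ± 0.0079, 0.103 ± 0.0092, 0.0955 ± 0.0014 and 0.102 ± 0.0026 (SD) in pre-treatment, 18 °C, 25 °C and 29 °C flies. The 25 °C libraries were the lowest and the other groups overlapped (exact permutation p = 0.206, adjusted p = 0.248). The ocellar Rh2 to ninaE ratio was 0.0139, 0.0124 and 0.0150 before the exposure, 0.00924, 0.00885 and 0.0101 after 18 °C, 0.0125 and 0.0144 after 25 °C, and 0.0115, 0.0129 and 0.0123 after 29 °C. The 18 °C libraries were below all the others, which overlapped (exact permutation p = 0.00688, adjusted p = 0.0187). The adjusted p was 0.0510 without 18 °C replicate 1 and 0.0543 without 18 °C replicate 2.

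**Figure D4:**
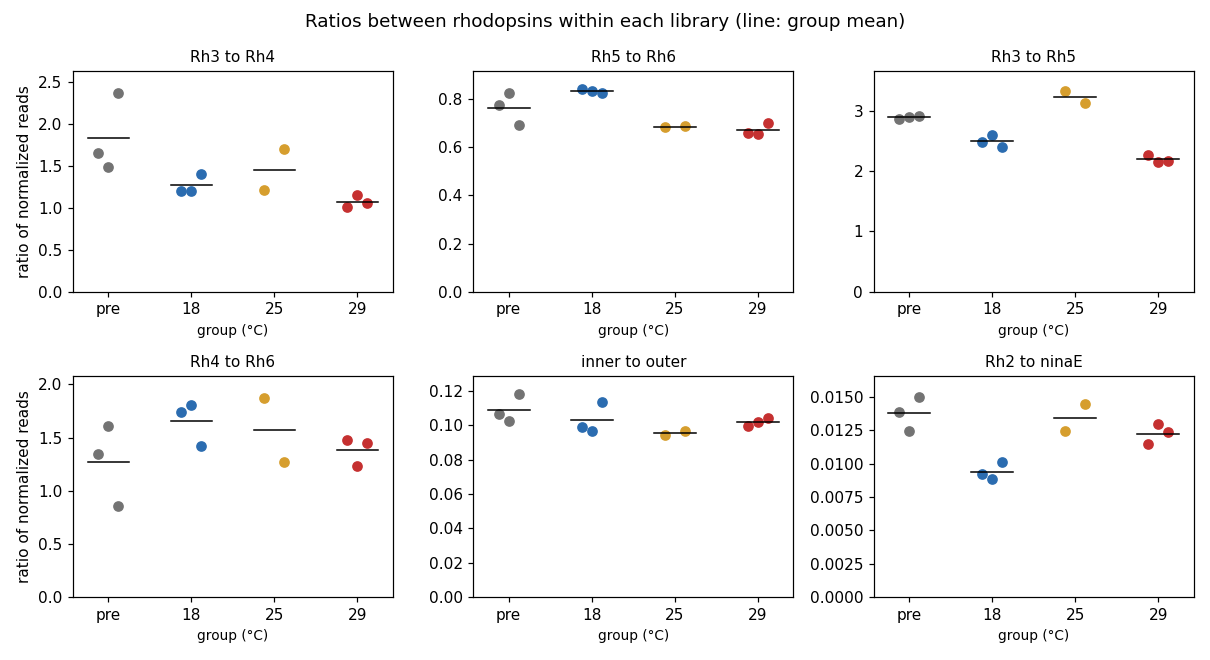
Ratios of normalized reads between rhodopsins within each library (points) with the group mean (line), in pre-treatment flies and after 10 days at 18, 25 and 29 °C; inner is the sum of Rh3, Rh4, Rh5 and Rh6 and outer is ninaE. Rh3 to Rh5 separates all 4 groups, and the 18 °C libraries are highest for Rh5 to Rh6 and lowest for Rh2 to ninaE.

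Libraries of the same group differed in a way that was not particular to the rhodopsins. Over all genes tested, the first component of the differences within groups held 48.4% of that variance. Within-group deviations correlated with it at r = 0.93 (Rh2), 0.99 (Rh3), 0.95 (Rh5), 0.99 (Rh6), -0.80 (Rh4), -0.98 (Rh7) and 0.40 (ninaE). With log2 depth, r was -0.80 to -0.87 for Rh2, Rh3, Rh5 and Rh6, 0.30 for Rh4, 0.71 for Rh7 and -0.41 for ninaE. Rh2, Rh3, Rh5 and Rh6 were each highest in pre-treatment replicate 3, 18 °C replicate 3, 25 °C replicate 2 and 29 °C replicate 2, which were also the shallowest libraries of their groups. In pre-treatment replicate 3 the log2 deviation from the group mean was 0.31 for Rh6, 0.18 for Rh3, 0.17 for Rh5 and 0.13 for Rh2, while that of Rh4 was -0.22, that of Rh7 -0.22 and that of ninaE 0.002. Rh7 was the lowest of its group in all 4 of these libraries and Rh4 in 3 of them, the exception being 18 °C replicate 3 (0.02). With depth as a term in the fit, the log2 fold change between 29 °C and 18 °C flies was 0.73 for Rh2 and 0.58 for Rh6, and both were called.

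**Figure D5:**
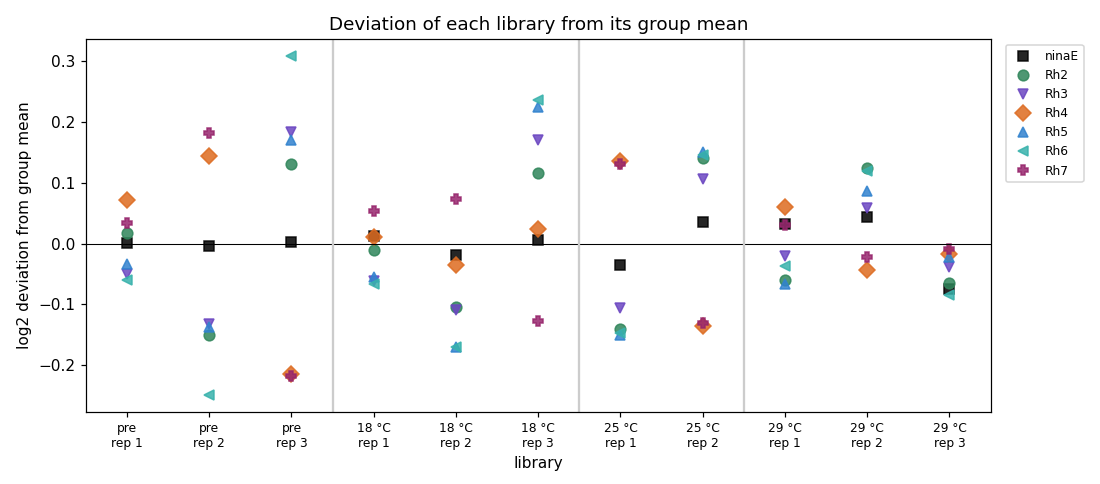
Log2 deviation of each rhodopsin from its group mean in each of the 11 libraries, grouped as pre-treatment, 18, 25 and 29 °C, with a marker per gene. In pre-treatment replicate 3, Rh6 lies at 0.31 and Rh4 and Rh7 both at -0.22, and ninaE stays near 0 in all libraries of its group before the exposure.

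Several cell type markers also differed between the groups, and their part in the rhodopsin results was not tested. The summed normalized reads of the 5 photoreceptor markers ran from 813793 to 821880 in 29 °C flies, against 584795 to 597540 in 18 °C flies, and from 681450 to 740655 in pre-treatment flies. The 25 °C libraries had 677512 and 688601. Of the 5, only Arr2 was called in 29 °C against 18 °C flies, 1.47-fold higher (564322 against 384900 normalized reads), and the sum was mostly Arr2. chp passed the p threshold but not the fold limit (0.46 on the log2 scale, limma adjusted p = 0.00868). eys, prom and ninaC passed neither. The summed glial markers (5 genes) ran from 50810 to 52508 in 29 °C flies against 83767 to 88253 in 18 °C flies, with 4 of 5 called lower. The summed muscle markers (5 genes) ran from 106773 to 164479 over the exposed libraries against 239670 to 325520 in pre-treatment flies. Their sum was higher in all 3 libraries of 29 °C than in those of 18 °C. It was mostly Mhc, which was not called in that comparison (98809 against 70136 normalized reads). Of the 5, TpnC4 was called higher (19.0 against 3.78, near the floor) and Act88F lower (92.2 against 788, limma adjusted p = 8.88e-06). The summed neuron, fat body and pigment cell markers overlapped between 29 °C and 18 °C flies. Punch was not matched among the pigment genes. The fat body sum was mostly apolpp (775788 normalized reads at 29 °C), which was not called. Within that list Lsp1beta was called 14.8-fold higher at 29 °C (26855 ± 7733 against 1812 ± 180 normalized reads, SD, limma adjusted p = 2.4e-06). The other fat body markers were not called. Of all genes tested, 5.36% were called higher and 5.29% lower in this comparison.

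Some genes that work downstream of rhodopsin differed with temperature. Of 21 genes of the phototransduction cascade, all tested, 7 rose in 29 °C against 18 °C flies and none fell, where 5.36% of all genes were called higher and 5.29% lower. The other 14 were not called, among them inaD, Gbeta76C and Arr1 with values of -0.16, -0.21 and -0.01 on the log2 scale. For the whole list, the median on that scale was 0.17. The light-gated channels trp and trpl rose most, trp 2.33-fold (limma adjusted p = 4.58e-06) and trpl 2.34-fold (limma adjusted p = 9.71e-06). inaF-B, which is needed for TRP channel function, rose 2.05-fold, and norpA, the phospholipase C, rose 1.62-fold. The remaining 3 were Arr2, the major arrestin that quenches active rhodopsin, the diacylglycerol kinase gene rdgA, and rtp. The differences of trp and trpl exceeded those of all 7 rhodopsins in this comparison, although the difference between them and the rhodopsins was not tested.

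After 18 °C many genes of the cascade were below the pre-treatment level. Of the 21 genes, 9 were called lower in 18 °C than in pre-treatment flies (norpA, trp, trpl, inaF-B, Gbeta76C, rdgA, rtp, Calx and laza) and none higher, where 4.44% of all genes were called lower. The median of the list was -0.33 on the log2 scale, where the rhodopsins had a median of 0.06. In 29 °C against pre-treatment flies 2 were higher (trp, 1.59-fold, and trpl, 1.57-fold) and 2 lower (Gbeta76C and Calx). Of all genes, 5.92% were called higher and 6.89% lower there. In 25 °C against pre-treatment flies, Gbeta76C (-0.63) and rdgA (-0.52) were lower and none was higher. The shares of all genes were 2.66% lower and 2.77% higher. Gbeta76C encodes the beta subunit of the eye G protein that rhodopsin activates.

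Genes that supply the chromophore were called in both directions between 29 °C and 18 °C, and none of those that help rhodopsin to mature was. Of 12 listed for both roles, 10 were matched and 9 tested. Those not matched, and so not examined, were ninaA and Xport-A. In 29 °C against 18 °C flies, 1 was called higher and 3 lower, where 5.36% of all genes were called higher and 5.29% lower. The gene called higher was ninaD, a scavenger receptor for carotenoid uptake. It had 223 ± 29 normalized reads at 29 °C against 129 ± 20 at 18 °C (SD, n = 3 each, limma adjusted p = 0.0309). The other 3 called genes were lower at 29 °C, all of them acting on retinoids: Pdh, the retinol dehydrogenase of pigment cells, had 22758 ± 1274 against 36875 ± 1051 (limma adjusted p = 0.000242), rdhB, another retinol dehydrogenase, 4747 ± 160 against 7073 ± 202 (limma adjusted p = 0.000151), and pinta, a retinoid-binding protein of pigment cells, 1621 ± 115 against 2479 ± 133 (limma adjusted p = 0.00742). Pdh was also lower than before the exposure in all 3 exposed groups, with log2 fold changes of -1.02 after 18 °C, -0.80 after 25 °C and -1.72 after 29 °C. pinta was higher in 18 °C flies than in pre-treatment flies (0.76, limma adjusted p = 0.00319), and its value in 29 °C against pre-treatment flies was 0.14 (limma adjusted p = 0.449). ninaD was lower in 25 °C flies (-1.31) and 18 °C flies (-1.40) than in pre-treatment flies. In 29 °C against pre-treatment flies limma called 2 of the 9 genes lower and 0 higher, so that ninaD was not called higher there. Of all genes, 6.89% were called lower in that comparison and 5.92% higher.

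Factors that choose which rhodopsin an R7 or R8 cell makes were looked at next. Of 21 regulators tested, none was called in 29 °C against 18 °C flies by limma, edgeR or DESeq2, where limma called 10.6% of all genes. An unadjusted p of 0.05 was passed by 4 in limma, as by 30.5% of all genes, and by 5 in each of the other tools. The choice between pale and yellow R8 rests on wts, which favors Rh6, and melt, which favors Rh5. Their log2 fold changes in this comparison were -0.04 for wts (limma adjusted p = 0.877) and -0.24 for melt (limma adjusted p = 0.208). The value for Pph13, an activator of rhodopsin genes, was 0.42 and passed only the p threshold (limma adjusted p = 0.00121). In 18 °C against pre-treatment flies 1 of the 21 was called higher, where 4.69% of all genes were. It was ss, which selects Rh4 in R7 (430 ± 62 against 290 ± 73 normalized reads, SD, n = 3 each, limma adjusted p = 0.0470). In 25 °C against pre-treatment flies 1 of 21 was called higher, where 2.77% of all genes were. That gene was yki (0.71, limma adjusted p = 0.0491). Of 5 genes of rhabdomere structure, none was called between 29 °C and 18 °C by any of the 3 tools, beside the same 10.6% of all genes in limma, and 4 passed an unadjusted p of 0.05 in each tool. Among them chp passed the adjusted p threshold but not the fold limit (0.46, limma adjusted p = 0.00868). eys, which opens the space between rhabdomeres, was called lower than before the exposure after 18 °C (-0.84), 25 °C (-0.96) and 29 °C (-0.85). It was the only 1 of the 5 called in these comparisons, where 4.44%, 2.66% and 6.89% of all genes were called lower.

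The genes whose levels followed each rhodopsin most closely were taken from 9921 genes by Pearson's r over the 11 libraries, which share the groups and their depth, so that r is a description only. For ninaE they were the small nucleolar RNAs snoRNA:Psi18S-1377a (r = 0.983) and snoRNA:Psi18S-1377d (0.977) and the neuropeptide gene Capa (0.976). For Rh2 they were Tango9 (0.978), CG42369 (0.975) and Yp3, a yolk protein gene (0.975). For Rh3 they were Mst36Fb (0.979), the constitutive chaperone gene Hsc70-4 (0.971) and hng3 (0.969).

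For Rh4 they were Su(Ste):CR42430 (0.981), one copy of a repeated family whose reads may be split among copies, Ubqn (0.954) and Cipc (0.953). For Rh5 the closest were less close, namely Nup188 (0.916), GluProRS (0.915) and CG9302 (0.914). CG9302 was also first for Rh6 (0.965), followed by CG12499 (0.955) and sle (0.947). For Rh7 they were DIP-delta, a neuronal cell surface protein gene (0.987), Bili (0.980) and CG34188 (0.972). No photoreceptor gene of the lists was among the 3 closest to any rhodopsin.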

How the data were processed

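Total RNA from heads was ribodepleted and made into directional libraries. The authors aligned reads to dm6 with STAR, counted genes with featureCounts and called circRNAs with find_circ2. Versions, annotation, strand setting and the handling of reads shared between genes are not given in the sources used here. The deposited values are a signal, reads divided by DESeq2 size factors. Whole reads were recovered for 100% of values within 0.01 of a whole number. Damaged Greek letters in 350 symbols were repaired.

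The main test was limma 3.58.1 (R 4.3.3) on log2(value + 1) in 1 fit of 11 libraries, for genes with a mean of 10 or more, with Benjamini-Hochberg adjustment over 12676 genes. Genes were called at adjusted p under 0.05 and absolute log2 fold change above 0.5. Values written as -fold are ratios of group means. Between 29 °C and 18 °C limma called 679 genes higher and 670 lower, edgeR 4.0.16 on the recovered reads 710 and 675, and DESeq2 1.42.0 839 and 783. The steps were tested on simulated data.

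The members and lists were chosen with earlier results of these data known. The rule named the rhodopsins, for each the 3 genes most alike (mean of 100 or more), and per list up to 3 called genes in each direction with the largest change in 29 °C against 18 °C or 25 °C against pre-treatment. Other genes were named after their values were seen. Alternatives were other pseudocounts, filters, scalings and tools, depth or replicate number as a term, only the compared groups, and each library left out. Replicates are biological per the study.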

Additional observations from a re-analysis of the deposited data

Results flagged for a closer look

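Of 2 circRNAs assigned to ninaE, which lie outside the gene-level measurement, 1 was above all pre-treatment libraries at 25 °C and 29 °C. This circRNA (3R:19887072-19887951, dm6, 880 nt) was not seen before the exposure (0 reads in 3 libraries, for which 3 reads would be worth 3.42 to 5.98 normalized reads). In the 18 °C libraries it had 2 reads in 1 library and none in the other 2. It had 8 and 5 reads in the 25 °C libraries, a mean of 6.32 normalized reads, and 16, 3 and 11 reads in the 29 °C libraries, a mean of 8.37 normalized reads. Its ends are not at annotated exon ends of ninaE, the counts are near the floor, and no test was run. The paper lists a circRNA of ninaE with these ends among the main age determinants of its separate aging series of fly heads. The other, which spans 48 nt (3R:19886265-19886312) and was left out of the search for such signals because its span is under 50 nt, averaged 5.66 ± 5.51, 12.7 ± 8.89, 10.1 ± 5.20 and 4.23 ± 1.55 normalized reads (SD) in pre-treatment, 18 °C, 25 °C and 29 °C flies, with overlapping groups.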

How the results depend on the processing

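The calls of Rh2 and Rh6 in 29 °C against 18 °C flies, and of ninaE, Rh4, Rh5 and Rh6 in 29 °C against pre-treatment flies, held in all 12 alternative settings and all 11 fits without 1 library. No rhodopsin called in the main fit changed sign, but estimates near 0 that the main fit did not call did. Examples were Rh5 (-0.26 to 0.09) and Rh6 (-0.09 to 0.30) in 25 °C against pre-treatment flies. Rh6 in 18 °C against pre-treatment flies ran from -0.07 to 0.51 and was called with depth as a term. In 29 °C against 25 °C flies the count of rhodopsins called higher was 1, but 0 with a pseudocount of 0.5, no filter, the replicate block or only the groups compared, 2 with a mean of 100 or more or scaling to the linear total, and 3 with depth as a term, the first component as a term or DESeq2; it ran from 0 to 3 without 1 library. In 18 °C against 25 °C flies the count called lower was 0 with depth as a term or only the groups compared, and 0 to 1 without 1 library. In 18 °C against pre-treatment flies, 1 was called higher with scaling to the linear total (Rh4) and 2 with depth as a term (Rh5 and Rh6), and 0 to 1 without 1 library; in 25 °C against pre-treatment flies it was 0 to 1. Scaling to the linear total also called Rh4 in 29 °C against 18 °C flies (0.51). The cause of these differences was not tested.

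For the ratios, the adjusted p (exact permutation) with the replicate block was 0.0729 for Rh5 to Rh6 and 0.0573 for Rh2 to ninaE, which then no longer passed. The labels give a replicate number and do not say what same-numbered libraries share. Of 15 same-numbered pairs, 6 had a correlation over 0.1 (range -0.47 to 0.47), and 6 of 11 libraries correlated best with their own number. These values do not settle whether the libraries were paired. Without 1 library the adjusted p ran from 0.0364 to 0.141 for Rh3 to Rh4, from 0.0119 to 0.0594 for Rh5 to Rh6 and from 0.0114 to 0.0543 for Rh2 to ninaE. Taking off the first component of the differences between libraries of a group (48.4% of that variance), an alternative chosen after seeing the data, gave 0.00026 for Rh3 to Rh4, 0.00026 for Rh4 to Rh6 and 0.0173 for inner to outer; these p-values are too small, because the component was computed from the same libraries. Over all genes, the counts moved too. In 29 °C against 25 °C flies limma called 31 higher and 50 lower, against 16 and 14 with only the groups compared, 67 and 96 with depth as a term, 105 and 127 by DESeq2 and 181 and 187 with the first component. With only the groups compared the counts were 57 and 63 in 25 °C against pre-treatment flies (351 and 337 in the full fit) and 48 and 39 in 18 °C against 25 °C flies (197 and 213). Without 25 °C replicate 2, 1 of only 2 libraries, the balance of higher to lower turned to 89 and 25 in 29 °C against 25 °C flies and to 219 and 97 in 18 °C against 25 °C flies, and in 25 °C against pre-treatment flies it was 269 and 465. Without 25 °C replicate 1 these counts were 15 and 26, 98 and 115, and 194 and 168. Scaling to the linear total turned the 751 higher and 874 lower of 29 °C against pre-treatment flies to 961 and 686. With 2 libraries, 25 °C limits what its comparisons can show.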
